A study of Mus musculus with 16 samples.

Results

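B lymphocytes present antigen to T cells together with a set of surface proteins that raise or restrain the T cell response, and 10 genes for such proteins were followed here in the 2 main mature B cell subsets of the mouse spleen. The genes were Cd80, Cd86, Icosl, Cd83, Cd274, Pdcd1lg2, Btla, Cd200, Cd72 and Cd24a, and they were chosen by gene symbol from the 27928 genes of the RNA-seq table. All 10 had a mean normalized count of at least 10 over the 8 libraries and were therefore among the 14761 genes tested. Follicular (FO) B cells, sorted as CD21lo CD23hi, and marginal zone (MZ) B cells, sorted as CD21hi CD23lo, came from spleens of mice aged 8 to 12 weeks. Wild type (WT) mice were C57BL/6 and carried no Cre. Conditional knock-out (cKO) mice were Gtf2i fl/fl with a Cre driver that is restricted to the B lineage, so the gene for the transcription factor TFII-I was deleted in B lineage cells. The study asked what loss of TFII-I does to the 2 subsets. Each of the 4 groups (WT FO, WT MZ, cKO FO, cKO MZ) had 2 libraries, numbered replicate 1 and replicate 2.

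The proteins differ in role. CD80 and CD86 bind CD28 and the inhibitory receptor CTLA-4 on T cells, ICOSL binds ICOS, and CD83 keeps CD86 and MHC class II on the surface by opposing the membrane ubiquitin ligase March1. PD-L1 (Cd274) and PD-L2 (Pdcd1lg2) bind the inhibitory receptor PD-1, BTLA is an inhibitory receptor that binds HVEM, and CD200 restrains myeloid cells through its own receptor. CD72 is an inhibitory co-receptor of the B cell receptor, and CD24 is a small glycosylated surface protein that binds Siglec family members. MZ B cells are known for rapid responses to blood-borne antigen, whereas FO B cells recirculate and take part in T cell dependent responses.

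Chromosome 16 holds 4 of the 10 genes. Btla and Cd200 are neighbours there, 124 kb apart with no annotated gene between them, and Cd274 and Pdcd1lg2 are neighbours on chromosome 19, 22.8 kb apart with none between (GENCODE M21, GRCm38). Btla and Cd200 were called as higher in FO in both genotypes, and neither Cd274 nor Pdcd1lg2 was called in either, as described in what follows. The difference within a pair was not tested. The promoter windows of these 4 neighbours are shown so that their sequences can be read beside their values. Each runs from 250 bases before to 50 bases after the RefSeq start (GRCm38.p6), is written 5′ to 3′ on the strand of its gene, and has capitals where an E-box (CANNTG, both strands) or the NF-kB consensus (both strands) was matched.
Btla, chr16:45224087-45224386, + strand: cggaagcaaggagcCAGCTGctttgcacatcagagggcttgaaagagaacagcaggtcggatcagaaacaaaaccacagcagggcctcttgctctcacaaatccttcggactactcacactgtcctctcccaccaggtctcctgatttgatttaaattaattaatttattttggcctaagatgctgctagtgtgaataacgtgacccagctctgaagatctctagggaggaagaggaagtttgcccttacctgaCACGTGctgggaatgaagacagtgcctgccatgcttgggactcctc
Cd200, chr16:45409004-45409303, - strand: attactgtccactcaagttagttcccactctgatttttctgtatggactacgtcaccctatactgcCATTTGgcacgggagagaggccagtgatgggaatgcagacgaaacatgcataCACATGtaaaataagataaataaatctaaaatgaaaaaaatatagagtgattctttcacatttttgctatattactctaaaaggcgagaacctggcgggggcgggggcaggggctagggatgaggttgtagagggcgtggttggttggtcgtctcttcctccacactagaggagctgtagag
Cd274, chr19:29367188-29367487, + strand: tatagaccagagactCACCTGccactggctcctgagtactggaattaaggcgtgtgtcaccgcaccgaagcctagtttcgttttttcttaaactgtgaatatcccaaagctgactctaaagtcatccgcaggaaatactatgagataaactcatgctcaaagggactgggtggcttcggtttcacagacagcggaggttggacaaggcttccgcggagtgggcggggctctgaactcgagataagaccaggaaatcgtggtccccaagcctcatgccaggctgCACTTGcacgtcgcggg
Pdcd1lg2, chr19:29410669-29410968, + strand: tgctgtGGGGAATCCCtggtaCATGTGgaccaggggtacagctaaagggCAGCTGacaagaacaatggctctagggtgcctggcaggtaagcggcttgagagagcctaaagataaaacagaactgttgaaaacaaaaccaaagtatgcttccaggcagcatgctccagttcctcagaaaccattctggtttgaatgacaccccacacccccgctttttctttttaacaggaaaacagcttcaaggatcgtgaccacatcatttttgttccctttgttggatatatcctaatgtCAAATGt
The E-box, a motif that TFII-I is known to bind together with USF, was found 2 times in the Btla window, 2 times in that of Cd200, 2 times in that of Cd274 and 3 times in that of Pdcd1lg2. Of all 32851 windows of this length, 72.3% held an E-box, so its presence in these 4 does not set them apart. The NF-kB consensus was matched 1 time in the Pdcd1lg2 window and in none of the other 3, against 4.51% of all windows. The GAS motif TTCNNNGAA (both strands), had no match in the 4 windows and was in 8.3% of all windows. RefSeq windows were at hand for 7 of the 10 genes, and not for Cd83, Cd86 and Cd24a. Those of Cd72, Cd80 and Icosl, with 1 E-box each, are not shown.

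The 8 libraries held 21546552 to 25083552 reads on genes, so depth was nearly even. The values are normalized counts, that is reads divided by a size factor of the library. Gtf2i was at 1992 to 2864 normalized counts in the WT and at 1523 to 1889 in the cKO libraries, without overlap (log2 difference of cKO minus WT with subset as a term −0.47, limma adjusted p = 0.0348). Gtf2i mRNA was therefore lower but not lost, and which reads come from the deleted exons cannot be told from gene counts. Within each subset the difference was not called (−0.40 in FO, limma adjusted p = 0.989, and −0.54 in MZ, limma adjusted p = 0.363). The study itself reports that the deletion was verified in DNA, mRNA and protein. Ddx3y, a Y-linked gene, was at most 6.34 in WT and at least 2682 in cKO. Xist was at 25930 to 47002 in WT, at 14748 in cKO FO replicate 1 and at 21.7 to 89.7 in the other cKO libraries. Genotype, presence of Cre and sex-linked transcripts thus differ together, and their parts in any cKO to WT difference cannot be told apart. Through cKO FO replicate 1, the FO and MZ libraries of cKO are also unequal in sex-linked transcripts. Cr2 (CD21) was at 22942 to 26803 in FO and 86953 to 97087 in MZ, and Fcer2a (CD23) at 24802 to 41973 in FO and 3070 to 6708 in MZ, in the direction of the gates. The sum of 10 granulocyte markers was 47 to 112 in 7 libraries and 1909 in cKO MZ replicate 1, and the sum of 8 erythroid markers was 40.9 to 1036 in 7 libraries and 13491 in that same library. Calls that were lost without it are named where they are given. T cell marker sums (10 genes) were 74.2 to 170.3 and dendritic cell sums (10 genes) 261.5 to 543.2.

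Per kilobase of exon, the ligand genes spanned a wide range of levels. In WT FO B cells Btla was highest with 5624 ± 1246 normalized counts per kb (SD, n = 2), followed by Cd83 (4546 ± 1894) and Cd24a (4042 ± 287). The libraries of Cd83 overlapped with those of both its neighbours in this order. Icosl (3204 ± 372), Cd72 (2667 ± 205), Cd274 (760 ± 338), Cd200 (452 ± 62.9), Cd86 (286 ± 50.3), Pdcd1lg2 (146 ± 44.6) and Cd80 (9.83 ± 2.09) came next, each separated from its neighbour in both libraries. In WT MZ B cells the order began with Cd24a (6005 ± 28.9 per kb) and ended again with Cd80 (43.0 ± 22.2 per kb). From Cd72 down to Cd274 no neighbours in the MZ order were separated beyond their spread.

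**Figure D1:**
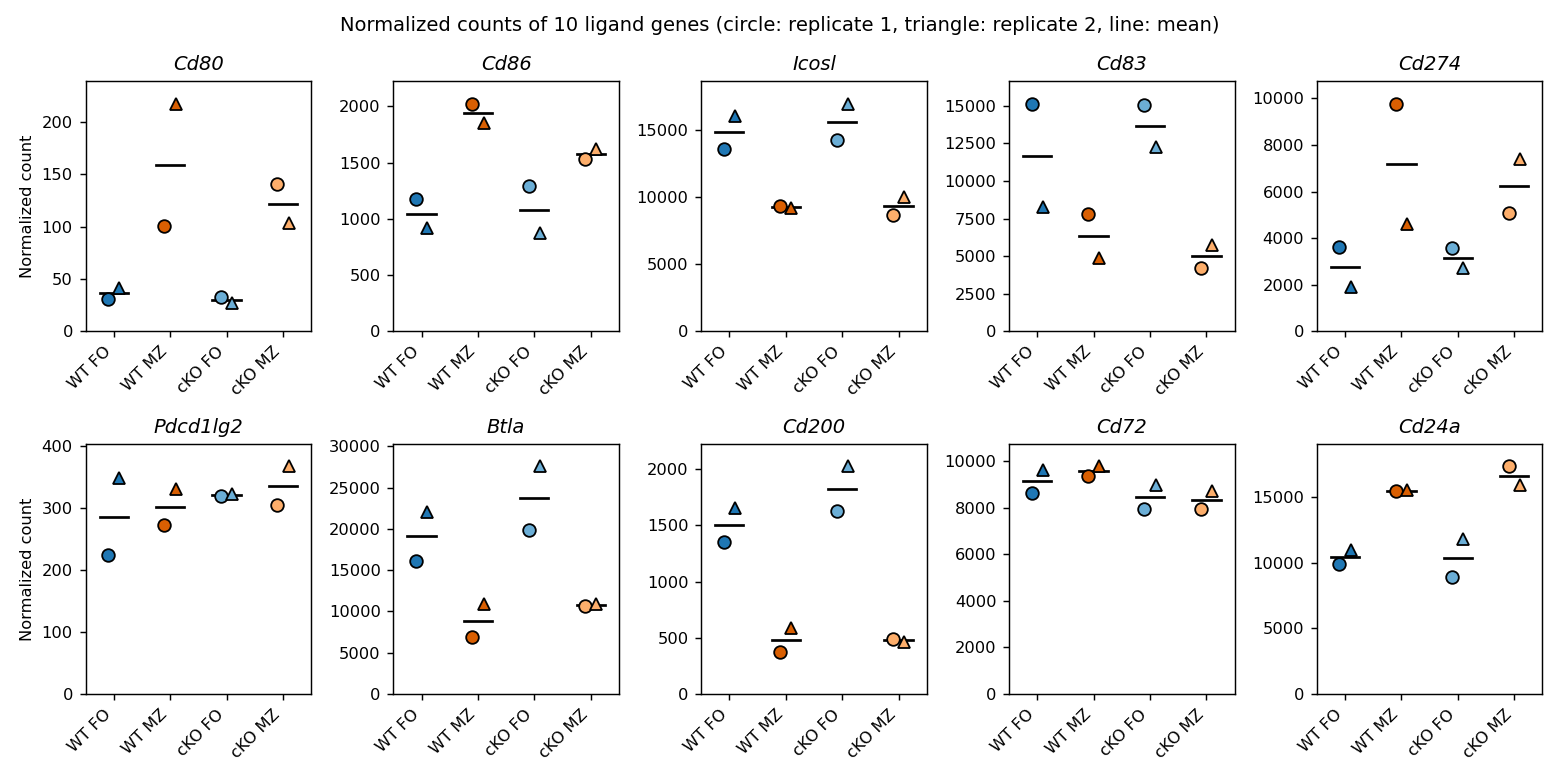
Normalized counts (y axis, linear from 0, own scale in each panel) of the 10 ligand genes in the 4 groups (x axis), with circles for replicate 1, triangles for replicate 2 and a line at the mean. All 4 FO libraries lie above all 4 MZ libraries for Icosl, Cd83, Btla and Cd200 and below them for Cd80, Cd86, Cd274 and Cd24a.

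Which of these genes differ between FO and MZ B cells was asked within each genotype. In WT, Icosl, Btla and Cd200 were higher in FO, and Cd80 and Cd86 were higher in MZ B cells, by 1.6 to 4.04 fold. These are 3 of 10 called as higher in FO, where 4.62% of all genes tested were, and 2 of 10 called as higher in MZ, where 7.41% were. In cKO, 4 of 10 were called as higher in FO (Icosl, Btla, Cd200 and Cd83, against 5.54% of all genes) and 2 of 10 as higher in MZ (Cd80 and Cd24a, against 8.18%). A gene was called at a limma adjusted p of at most 0.05 and a difference of at least 1.5-fold on the log2(normalized count + 1) scale. Across both genotypes, all 4 FO libraries were above all 4 MZ libraries for 4 of 10 genes (17.9% of all genes tested), and below them for 4 others (18.6%). The labels do not say that libraries of a group came from separate animals. The p-values thus measure the spread between these libraries, which may be technical. In cKO FO, Xist was at 14748 and 67.4 in replicates 1 and 2, which the same set of animals would not give. With 2 libraries against 2, an exact permutation test of 1 gene cannot go below p = 0.333 (two-sided). In such bulk samples fewer cells that express a gene and less RNA per cell cannot be told apart. The call count also rests on single libraries, being 3 to 6 in WT and 1 to 6 in cKO when 1 library was left out, and only Cd200 was called in cKO without cKO MZ replicate 1, the library with the high erythroid and granulocyte sums.

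Cd80, the CD28 ligand of activated antigen presenting cells, was the least abundant of the 10 and had the largest fold difference. It was at 30.9 and 41.9 normalized counts in FO libraries of WT, 32.5 and 27.2 in those of cKO, 101.1 and 217.4 in MZ libraries of WT, and 140.5 and 103.1 in those of cKO (replicates 1 and 2). Every MZ library was above every FO library, and the WT MZ libraries differed from each other by 2.14 fold. Behind these values stood 27 to 240 reads per library. The log2 difference of FO minus MZ was −2.01 ± 0.390 for WT (SE, 4.04-fold higher in MZ, limma adjusted p = 0.0121) and −1.98 ± 0.390 for cKO (3.95-fold, limma adjusted p = 0.0112). The WT call was lost without WT FO replicate 1 (limma adjusted p = 0.0632) and in a fit of the 4 WT libraries alone (0.0677). Leaving out cKO FO replicate 1 (0.0540), cKO FO replicate 2 (0.0669) or cKO MZ replicate 1 (0.0942) took the cKO call away by its limma adjusted p.

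Macrophages and dendritic cells also express Cd80, and some marker sums of other cells had its replicate order. The sum of 10 macrophage and monocyte markers was 744.5 and 1364 (WT) and 1199 and 743.8 (cKO) normalized counts in FO B cells, against 764.7 and 1967 (WT) and 2070 and 1321 (cKO) in MZ B cells. In all 4 groups the replicate with the higher sum was the replicate with more Cd80, and none of the 10 markers was at 0 in a whole group. Cd68, the largest marker with 21.3% of that sum, had the order of Cd80 only in cKO FO (206 and 186). It had the reverse in WT FO (221 and 173), WT MZ (378 and 283) and cKO MZ (336 and 384). The T cell marker sum had the order of Cd80 in 4 of 4 groups, and the dendritic cell and erythroid sums in 3 of 4. The stromal and endothelial sum had it in 2 of 4, and the granulocyte and plasma cell sums in 1 of 4. The share of all genes tested with the order of Cd80 was not computed. WT FO replicate 1 and WT MZ replicate 1 held 30.9 and 101.1 normalized counts of Cd80. Their macrophage sums were 744.5 and 764.7, their dendritic cell sums 261.5 and 354.4, and their T cell sums 123.7 and 103.1. The part of other cells in the Cd80 values was not tested. The 3 tested genes with the profile most like that of Cd80 over the 8 libraries were Rbm47, Armc2 and Rad54b, with root mean square differences of the centred log2 values of 0.147, 0.148 and 0.205 against a median of 1.09 over all genes tested.

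**Figure D2:**
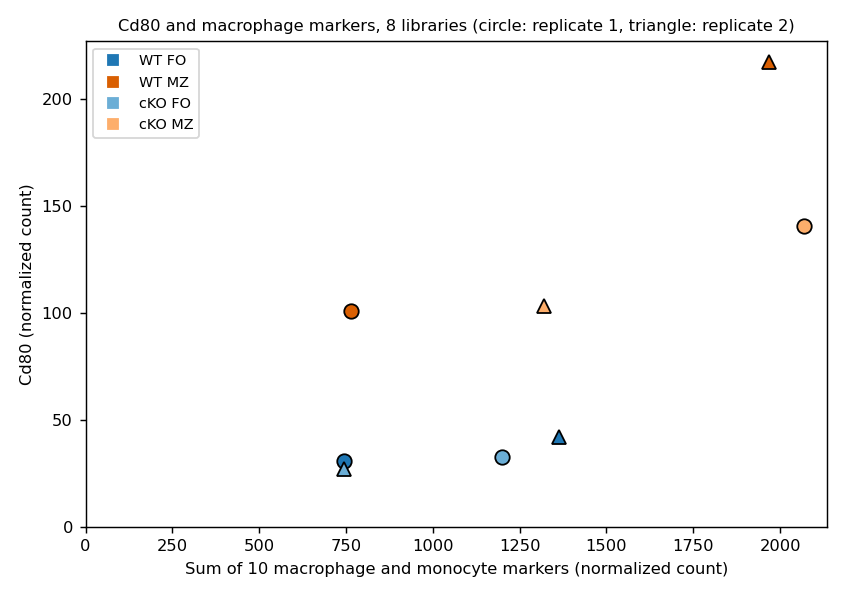
Cd80 (y axis, normalized count) against the sum of 10 macrophage and monocyte markers (x axis, normalized count) in the 8 libraries, coloured by group, with circles for replicate 1 and triangles for replicate 2. Within each group the library with more marker counts has more Cd80. The FO libraries hold 27.2 to 41.9 at sums from 743.8 to 1364, and the MZ libraries 101.1 to 217.4 at sums from 764.7 to 2070.

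Cd86, the second CD28 ligand, was at 1176 and 915 (WT) and 1290 and 875 (cKO) normalized counts in the FO libraries, and 2024 and 1857 (WT) and 1530 and 1625 (cKO) in the MZ libraries. Its MZ libraries were again all above its FO libraries, with less distance in cKO. On the log2 scale, FO minus MZ was −0.90 ± 0.191 for WT (1.87-fold higher in MZ, limma adjusted p = 0.0172). In cKO it was −0.57 ± 0.191 (limma adjusted p = 0.0760) and missed the threshold, but the difference between the genotypes, tested as the interaction, was −0.33 ± 0.270 with a limma adjusted p of 1. The WT call was lost without WT FO replicate 2 (−0.72, limma adjusted p = 0.0750) and without WT MZ replicate 1 (−0.84, limma adjusted p = 0.0756). Without cKO FO replicate 1 the cKO difference was −0.85 and passed (limma adjusted p = 0.0301), and without cKO MZ replicate 1 it was −0.61 (limma adjusted p = 0.218).

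Icosl, whose product engages ICOS on follicular helper T cells, went the other way from the CD28 ligands. It was at 13589 and 16017 normalized counts in FO libraries of WT, 14270 and 16931 in those of cKO, 9290 and 9187 in MZ libraries of WT, and 8671 and 10010 in those of cKO. Each FO library exceeded each MZ library, and replicates were within 1.19 fold. By limma, FO minus MZ was 0.68 ± 0.126 for WT (1.6-fold, limma adjusted p = 0.0106) and 0.74 ± 0.126 for cKO (1.67-fold, limma adjusted p = 0.00643). The difference is close to the 1.5-fold cutoff, and quantile normalization put it at 0.57 in both genotypes, below that cutoff. The call was also lost in WT without WT FO replicate 2 (0.56, limma adjusted p = 0.0502). In cKO the same happened without cKO MZ replicate 1 (0.63, limma adjusted p = 0.0605).

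Cd83, the partner that keeps CD86 on the surface, was at 15135 and 8247 (WT) and 15065 and 12288 (cKO) normalized counts in FO B cells, against 7837 and 4885 (WT) and 4209 and 5761 (cKO) in MZ B cells. FO libraries were above MZ libraries throughout, but in WT the lower FO library and the higher MZ library lay close together. As a log2 difference, FO minus MZ was 0.85 ± 0.323 for WT (limma adjusted p = 0.121) and 1.47 ± 0.323 for cKO (2.76-fold, limma adjusted p = 0.0179). The interaction was −0.61 ± 0.457 (limma adjusted p = 1), so the larger cKO difference was not shown to differ from that in WT. In WT, leaving out WT FO replicate 2 gave 1.29 and a call (limma adjusted p = 0.0353). The cKO call was lost when any 1 of the 4 cKO libraries was left out, with differences from 1.24 to 1.69 and limma adjusted p-values from 0.0503 to 0.130.

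March1, the ligase that CD83 opposes and that removes CD86 from the surface, had 8322 and 8559 normalized counts in the FO libraries of WT, against 3994 and 5133 in its MZ libraries. It was higher in FO for WT (log2 0.90, limma adjusted p = 0.00395) and for cKO (0.73, limma adjusted p = 0.00823), the direction opposite to that of Cd86. The cKO call was lost without cKO MZ replicate 1 (0.74, limma adjusted p = 0.0586). Its relative March8 was at 14.0 to 122 normalized counts and was not called (limma adjusted p = 0.107 in WT and 0.0503 in cKO). The highest March8 value was in cKO MZ replicate 1 (122, against 49.5 in replicate 2). Its log2 difference in cKO was −1.61, and −0.97 without that library.

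Cd274 and Pdcd1lg2, the neighbouring genes for the PD-1 ligands whose promoter windows are shown above, were each set against the subsets. Cd274 was at 3620 and 1888 (WT) and 3578 and 2725 (cKO) normalized counts in the FO libraries, and 9764 and 4612 (WT) and 5068 and 7417 (cKO) in the MZ libraries. All MZ libraries exceeded all FO libraries, yet replicates differed by up to 2.12 fold, the difference within WT MZ. The FO minus MZ difference was −1.36 ± 0.410 for WT (limma adjusted p = 0.0608) and −0.97 ± 0.410 for cKO (limma adjusted p = 0.142), and neither was called. The WT difference passed without WT FO replicate 1 (−1.83, limma adjusted p = 0.0436) or WT MZ replicate 2 (−1.90, limma adjusted p = 0.0209), under quantile normalization (−1.44, limma adjusted p = 0.0407), and with the replicate number as a replicate block (−1.36, limma adjusted p = 0.0308). In cKO it passed when the 4 cKO libraries were fitted alone (limma adjusted p = 0.0125), and without cKO MZ replicate 1 it was −1.25 (limma adjusted p = 0.217).

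Pdcd1lg2 was at 225 and 348 normalized counts in FO libraries of WT, 320 and 323 in those of cKO, 273 and 331 in MZ libraries of WT, and 305 and 367 in those of cKO. The 4 groups overlapped. On the log2 scale, FO minus MZ was −0.10 (95% interval −0.62 to 0.41) in WT and −0.06 (−0.58 to 0.46) in cKO, so a difference of 1.5-fold towards MZ was not excluded by the interval in WT, and the sign turned under quantile normalization to 0.025 and 0.08. Cd274 and Pdcd1lg2 each overlap an annotated antisense gene, and it is not stated whether counting used the strand, so reads of either cannot be told from reads of its antisense partner. That of Pdcd1lg2, A930007I19Rik, was at 68.4 to 105 normalized counts.

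Btla and Cd200, neighbours on chromosome 16, were both higher in FO B cells. Btla was at 16106 and 22092 (WT) and 19816 and 27545 (cKO) normalized counts in FO B cells, against 6866 and 10871 (WT) and 10662 and 10913 (cKO) in MZ B cells. No FO library was as low as an MZ library. By limma, FO minus MZ was 1.13 ± 0.250 for WT (2.18-fold, limma adjusted p = 0.0207) and 1.11 ± 0.250 for cKO (2.17-fold, limma adjusted p = 0.0192). In WT the call was lost without WT FO replicate 2 (0.90, limma adjusted p = 0.0884), without WT MZ replicate 1 (0.79, limma adjusted p = 0.0813), and in a fit of the 4 WT libraries alone (limma adjusted p = 0.0810). In cKO it was lost without cKO FO replicate 2 (0.88, limma adjusted p = 0.111), without either MZ library (limma adjusted p = 0.110 and 0.0890), and under quantile normalization (0.97, limma adjusted p = 0.0518).

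Cd200 was at 1354 and 1650 (WT) and 1626 and 2023 (cKO) normalized counts in the FO libraries, and 371 and 590 (WT) and 492 and 461 (cKO) in the MZ libraries. The gap between the lowest FO and the highest MZ library was wide. As a log2 difference, FO minus MZ was 1.67 ± 0.221 for WT (3.19-fold, limma adjusted p = 0.00249) and 1.93 ± 0.221 for cKO (3.8-fold, limma adjusted p = 0.0012). Cd200 was the one gene of the 10 called in both genotypes under every alternative run, with adjusted p-values up to 0.0300 in WT and 0.0156 in cKO. The 3 tested genes with the most similar profile over the 8 libraries were Cdc25b, Lfng and Diras2 (root mean square differences of the centred log2 values of 0.139, 0.152 and 0.154, against a median of 0.952).

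Cd72, the inhibitory co-receptor, was at 8629 and 9623 normalized counts in FO libraries of WT, 7932 and 8958 in those of cKO, 9360 and 9766 in MZ libraries of WT, and 7962 and 8719 in those of cKO. FO and MZ libraries overlapped in both genotypes, and replicates differed by at most 1.13 fold. The 95% intervals of FO minus MZ, −0.30 to 0.17 in WT and −0.22 to 0.25 in cKO, leave out a 1.5-fold difference in either direction. Cd72 overlaps Tesk1 on the opposite strand, which was higher in FO (log2 0.79 in WT, limma adjusted p = 0.00777) at a lower level of 393 to 911 normalized counts.

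Cd24a was at 9905 and 10953 (WT) and 8912 and 11781 (cKO) normalized counts in FO B cells, against 15441 and 15546 (WT) and 17325 and 15886 (cKO) in MZ B cells. The MZ libraries were all above the FO libraries. The FO minus MZ difference was −0.57 ± 0.136 for WT (limma adjusted p = 0.0267), which is 1.49-fold and so just short of the fold cutoff, and −0.70 ± 0.136 for cKO (1.62-fold, limma adjusted p = 0.0112), which was called. The WT difference passed under quantile normalization (−0.67, limma adjusted p = 0.0268), and the cKO call was lost without cKO FO replicate 1 (−0.49, limma adjusted p = 0.0534) or cKO MZ replicate 1 (−0.63, limma adjusted p = 0.0887).

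**Figure D3:**
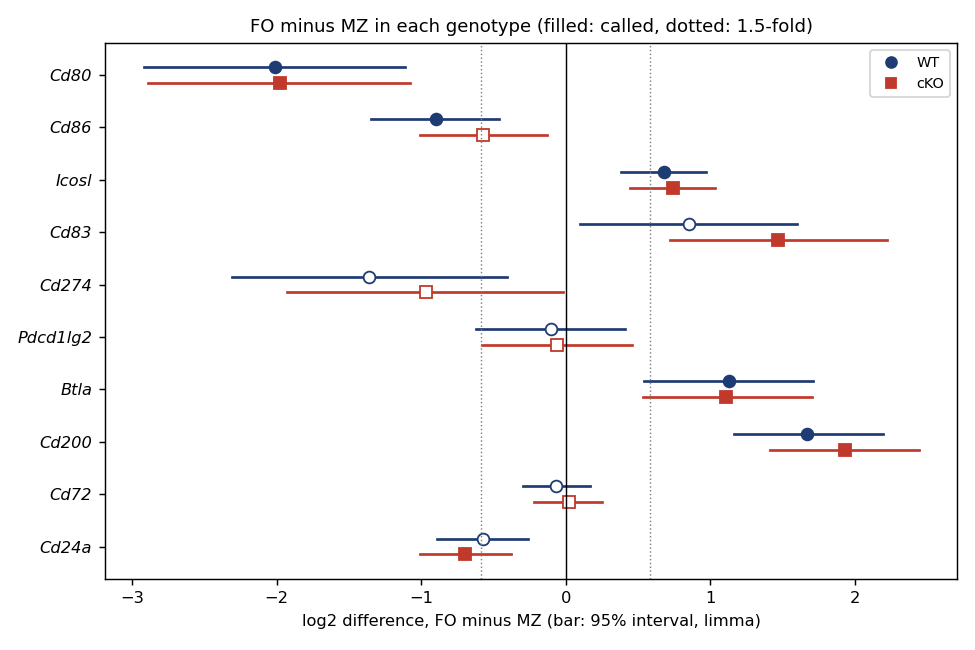
Log2 difference of FO minus MZ (x axis) for the 10 genes (y axis) in WT (circles) and cKO (squares), with 95% intervals from limma, filled where called and dotted lines at 1.5-fold. Cd200 at 1.67 and 1.93 and Cd80 at −2.01 and −1.98 lie farthest from 0, and Cd72 and Pdcd1lg2 have intervals that include 0 in both genotypes.

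The receptors of these ligands and related genes were described from lists chosen with earlier results known. Of 11 tested genes for other ligands of T cell receptors, 1 was called as higher in FO and 3 as higher in MZ in WT, and 1 and 2 in cKO, where 4.62% and 7.41% of all genes were called in WT and 5.54% and 8.18% in cKO (median log2 difference 0.00 in WT and −0.04 in cKO, where all genes had medians of 0.005 in both). Vsir, which encodes the inhibitory ligand VISTA, was higher in FO (log2 1.38 in WT, limma adjusted p = 0.0272). Higher in MZ were Tnfsf18, the ligand of GITR (−2.19, limma adjusted p = 0.00897, at 4.99 to 45.8 normalized counts), Pvr, a ligand of CD226 and TIGIT (−1.40, limma adjusted p = 0.00322), and Icam1, the adhesion ligand of LFA-1 (−0.66, limma adjusted p = 0.0288, with −0.54 and limma adjusted p = 0.0522 in cKO). Of 6 tested receptors and partners of the ligands, Rgmb, which binds PD-L2, was the single call in either genotype, against the same shares, and was higher in MZ (−1.60, limma adjusted p = 0.00178). Tnfrsf14, which encodes the BTLA partner HVEM, was at 345 to 562 normalized counts and was not called. Of 11 inhibitory receptors and phosphatases of B cells, only Lair1, a collagen receptor, was called, again against these shares, as higher in MZ for WT (−3.50, limma adjusted p = 3.01e-05) and cKO (−4.02, limma adjusted p = 1.47e-05). Siglecg, a Siglec receptor of CD24, was at 18448 to 27316 normalized counts and lay below the fold cutoff (−0.37 in WT). Without cKO MZ replicate 1, 2.95% of all genes were called as higher in FO and 4.32% as higher in MZ in cKO. Tnfsf18, Rgmb and Lair1 were called in cKO without it, whereas Vsir (limma adjusted p = 0.0592) and Pvr (limma adjusted p = 0.0523) were not.

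Whether loss of TFII-I changed the ligand genes was asked in each subset, with the subset as a term, and as an interaction. None of the 10 was called by limma in any of the 4, and none by DESeq2 or edgeR. Of all genes tested, 0.0677% were called between cKO and WT FO B cells (10 genes, and 4 to 11 with 1 library left out), 0.0339% in MZ (5 genes) and 0.149% with subset as a term (22 genes), with 0% in the interaction. At an unadjusted limma p under 0.05 stood 0 members in FO, 0 in MZ, 1 with subset as a term (Cd72) and 0 in the interaction, against 382, 596, 1230 and 94 genes in all. No gene of the related lists was called between genotypes either.

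Log2 differences of cKO minus WT lay between −0.33 and 0.32 for the 10 genes in FO and MZ. Their precision was unequal. For Icosl the 95% intervals were −0.22 to 0.37 in FO and −0.28 to 0.31 in MZ, and for Cd72 −0.35 to 0.12 and −0.43 to 0.04, which leave out a 1.5-fold change. For Cd274 they were −0.70 to 1.21 in FO and −1.08 to 0.82 in MZ, and for Cd80 −1.17 to 0.64 and −1.20 to 0.61, so that a change of 2-fold in either gene could not have been excluded by them in at least 1 direction. Cd83 had −0.47 to 1.04 in FO and −1.08 to 0.42 in MZ.

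In cKO FO B cells all 10 genes overlapped with WT. The share of all genes tested without overlap between genotypes was not computed, so separations in MZ are given as a description only. For 1 gene, full separation of 2 libraries from 2 corresponds to an exact permutation p of 0.333. In MZ, the cKO libraries lay under the WT libraries for Cd72 (7962 and 8719 against 9360 and 9766) and Cd86 (1530 and 1625 against 2024 and 1857), and above them for Cd24a (17325 and 15886 against 15441 and 15546). None of these passed, with limma adjusted p = 0.998 for each, and without cKO MZ replicate 1 the differences were −0.13 (Cd72), −0.25 (Cd86) and 0.04 (Cd24a), with a limma adjusted p of 1. Cd72 had the smallest p with subset as a term (−0.16 ± 0.0666, 1.11-fold lower in cKO, limma adjusted p = 0.593). It was followed by Btla (0.31 ± 0.165, 1.24-fold higher in cKO, limma adjusted p = 0.670).

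**Figure D4:**
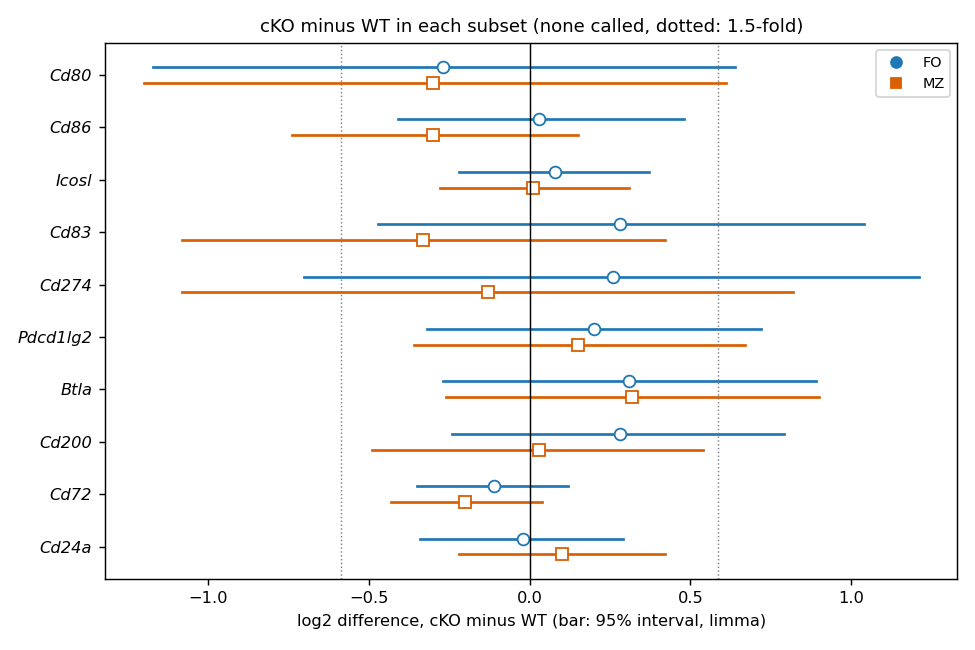
Log2 difference of cKO minus WT (x axis) for the 10 genes (y axis) in FO (circles) and MZ (squares) B cells, with 95% intervals from limma and dotted lines at 1.5-fold. All 20 intervals include 0, those of Cd72 and Icosl being narrow and those of Cd80 and Cd274 wide.

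Replicates of a group differed more for some ligand genes than for others. The median absolute difference between replicates over all genes tested was 0.235 (FO) and 0.203 (MZ) for WT and 0.190 (FO) and 0.148 (MZ) for cKO on the log2 scale. Cd83, Cd274 and Cd80 exceeded that median in all 4 groups, whereas Cd72 was below it in all 4. Between its WT replicates Cd274 differed by 1.92 fold (FO) and 2.12 fold (MZ), and between its cKO replicates by 1.31 fold (FO) and 1.46 fold (MZ). For Cd83 these differences were 1.83 and 1.60 fold in WT and 1.23 and 1.37 fold in cKO.

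Cd83 was higher in replicate 1 of WT FO, WT MZ and cKO FO and in replicate 2 of cKO MZ. Cd274 and Cd86 followed this order in all 4 groups, 2 of the 9 other genes, where 15.4% of all genes tested did. Cd200 and Cd24a had the reverse order in all 4 groups, as did 14.4% of all genes tested, so both counts are near what the whole table shows. This comparison was chosen after the values were seen. Cd86 and Cd24a differed little in some groups, by 1.06 fold and 1.01 fold at the least.

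Genes that respond within minutes to hours to B cell receptor or NF-kB signals were then set beside Cd83. Between FO and MZ, 1 of 16 immediate early genes was called as higher in FO (Ier2, log2 0.92 in WT, limma adjusted p = 0.00331) and 2 as higher in MZ (Myc, −1.80, limma adjusted p = 0.00926, and Egr2, −1.24, limma adjusted p = 0.0259), with the same counts in cKO. The shares of all genes called were 4.62% (FO) and 7.41% (MZ) in WT and 5.54% and 8.18% in cKO. Of 12 NF-kB response genes, 3 were called as higher in FO in WT (Ccr7, a chemokine receptor, at 1.76, the inhibitor Nfkbia at 0.99 and Birc3 at 0.64) and 3 as higher in MZ (Traf1 and Bcl2a1b, both at −1.37, and Icam1 at −0.66), against 2 and 2 in cKO, beside the same shares of all genes. Without cKO MZ replicate 1 the cKO counts were 0 and 1 for the immediate early genes (Ier2 and Myc being lost, with limma adjusted p = 0.0684 and 0.0693) and 2 and 2 for the NF-kB response genes. Replicate orders were compared with that of Cd83, which 15.4% of all genes tested shared and 14.4% reversed in all 4 groups. Of 16 immediate early genes tested, 9 had it in all 4 groups (Fosb, Jun, Junb, Myc, Atf3, Nr4a1, Nr4a2, Nr4a3 and Cd69) and none had the reverse. Among the 12 NF-kB response genes 4 had it (Rel, Tnfaip3, Nfkb1 and Ccr7) and none had the reverse. Rel, which encodes the NF-kB subunit c-Rel, was at 32109 and 12761 (WT) and 29447 and 18721 (cKO) normalized counts in the FO libraries, and 29615 and 9964 (WT) and 13501 and 23094 (cKO) in the MZ libraries. Nr4a1, an immediate early nuclear receptor, was at 16637 and 6551 normalized counts in FO libraries of WT, 19310 and 12101 in those of cKO, 23203 and 8711 in MZ libraries of WT, and 11641 and 21513 in those of cKO. For both genes the replicates of a group lay farther apart than FO and MZ means of a genotype. Neither was called between FO and MZ (limma adjusted p = 0.834 for Rel and 0.666 for Nr4a1 in WT). Fos had the opposite order in 3 of 4 groups, at 9813 and 18031 normalized counts in WT FO.

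Irf4, an activation-induced factor, had the order of Cd83 as well, at 28655 and 10907 (WT) and 27108 and 25256 (cKO) normalized counts in FO B cells, against 37342 and 13512 (WT) and 22260 and 34149 (cKO) in MZ B cells. Irf4 was listed as a plasma cell marker and made up 85.6% of that marker sum. Of the other tested genes of that list, Prdm1 had the order of Cd83 in 4 groups, Xbp1 in 3, Jchain in 1 and Sdc1 in 0. The 3 tested genes most like Cd83 over the 8 libraries were Gfi1, BC049352 and Chrna2, with root mean square differences of the centred log2 values of 0.138, 0.164 and 0.170 against a median of 0.713 over all genes tested. Gfi1, a transcriptional repressor, was at 472 and 238 (WT) and 492 and 430 (cKO) normalized counts in the FO libraries, and 213 and 183 (WT) and 128 and 181 (cKO) in the MZ libraries. The part of activation state in the replicate differences of Cd83, Cd274 and Cd86 was not tested.

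**Figure D5:**
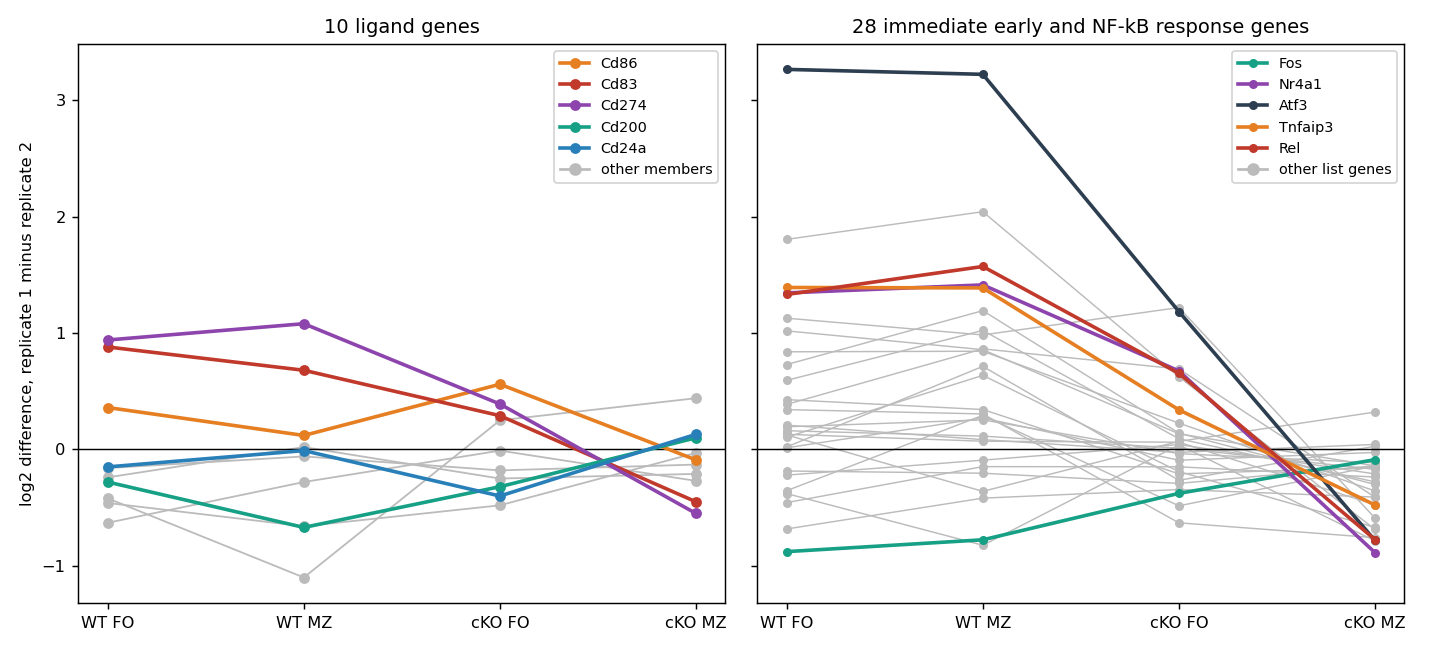
Log2 difference of replicate 1 minus replicate 2 (y axis) in each group (x axis) for the 10 ligand genes (left) and 28 immediate early and NF-kB response genes (right), each line joining the values of 1 gene. Cd83, Cd274, Cd86, Rel, Tnfaip3, Nr4a1 and Atf3 lie above 0 in WT FO, WT MZ and cKO FO and below 0 in cKO MZ.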

How the data were processed

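RNA was measured in 8 libraries (2 each of WT FO, WT MZ, cKO FO and cKO MZ). The 8 ATAC-seq samples were not analysed here. Per the study's methods, rRNA-depleted RNA was sequenced in single-end reads of 50 bases on a NextSeq, aligned to mm10 with HISAT2 and counted with featureCounts and HTSeq. Versions are not given in the sources used here. The authors deposited 1 table of DESeq2-normalized counts, a signal in which 100% of values were whole reads (tolerance 0.01 read) times a constant per library. With limma 3.58.1 (lmFit, eBayes with trend, R 4.3.3), log2(normalized count + 1) of 14761 genes with a mean of at least 10 was fitted over the 8 libraries in 1 model, with Benjamini-Hochberg adjustment over all of them. The test was checked on simulated data. Alternatives were a pseudocount of 0.5, no filter, quantile normalization, only the 4 libraries compared, a replicate block, DESeq2 1.42.0 and edgeR 4.0.16 (quasi-likelihood, TMM) on recovered reads, no or a 2-fold cutoff, and each library left out. March1 and March8, whose symbols the table stores as numbers, were found by identifier. All 10 members were named, as were related genes called between FO and MZ (up to 4 per list and direction by size in WT) or between genotypes. The sex-linked genes, the overlapping genes and those not called were named after their values were seen. Profiles most alike were sought for Cd83 and the 2 members with the largest WT difference of FO and MZ. A result on 1 further gene is not reported here. The members and lists were chosen with earlier results of these data known. Levels per kb use the union of exons of GENCODE M21.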

Additional observations from a re-analysis of the deposited data

How the results depend on the processing

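Of the 10 genes, 5 (WT) and 6 (cKO) were called between FO and MZ. Fitting only the 4 libraries compared and a 2-fold cutoff each gave 3 in WT, and leaving out 1 library gave 3 to 6 in WT and 1 to 6 in cKO. Other alternatives kept these counts within 1.5 times, and 0 members were called between genotypes under all of them. With the replicate number as a replicate block, 6 and 6 were called, Cd274 being added in WT. Replicate differences correlated over genes at 0.591 between WT FO and WT MZ, 0.294 between WT FO and cKO FO and 0.161 between WT MZ and cKO FO, but at −0.00151 between cKO FO and cKO MZ and at −0.296 between WT MZ and cKO MZ. The labels do not say that a number marks shared animals. In cKO, Xist was at 14748 in FO replicate 1 and at 89.7 and 21.7 in MZ replicates 1 and 2. The same set of animals would not give these values, so the number does not pair cKO FO replicate 1 with cKO MZ replicate 1. Whether numbers pair the other libraries is not settled, and the fit without the block is the one reported. Exchanging the numbers of cKO MZ, a choice made after seeing the data, gave 7 and 7. That exchange sets cKO FO replicate 1 beside cKO MZ replicate 2, which by their Xist values are not from the same set of animals either.

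Signs turned only for differences that were not called. Under quantile normalization these were Pdcd1lg2 (0.025 in WT, 0.08 in cKO) and Cd72 (−0.15 in cKO) between FO and MZ, and Cd83 (0.012) for cKO against WT with subset as a term. For Cd200 in MZ, cKO minus WT was −0.0029 with DESeq2 and −0.0025 with edgeR. With 1 library left out, FO minus MZ ranged over −0.42 to 0.21 (Pdcd1lg2) and −0.15 to 0.0094 (Cd72) in WT, and over −0.19 to 0.077 and −0.071 to 0.10 in cKO. In the same way cKO minus WT in FO ranged over −0.25 to 0.31 (Cd86), −0.15 to 0.72 (Cd83), −0.048 to 0.20 (Icosl), −0.21 to 0.73 (Cd274), −0.11 to 0.52 (Pdcd1lg2) and −0.22 to 0.18 (Cd24a). In MZ it ranged over −0.85 to 0.25 (Cd80), −0.67 to 0.012 (Cd83), −0.091 to 0.12 (Icosl), −0.67 to 0.41 (Cd274), −0.011 to 0.65 (Btla) and −0.31 to 0.36 (Cd200). With subset as a term it ranged over −0.26 to 0.18 (Cd83), −0.012 to 0.091 (Icosl), −0.16 to 0.32 (Cd274) and −0.031 to 0.13 (Cd24a).

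Over all genes, the 4 libraries compared alone gave 1014 calls in place of 1776 in WT and 4 in place of 10 between genotypes in FO, where leaving out 1 library gave 4 (without WT FO replicate 1 or cKO MZ replicate 1) to 11. DESeq2 gave 25, 48 and 78 calls between genotypes (FO, MZ, subset as a term) in place of 10, 5 and 22, and the exchanged block 16, 12 and 50. Of the DESeq2 calls, 62.5% in MZ and 60.3% with subset as a term were higher in cKO, against 100% and 86.4% by limma. A 2-fold cutoff gave 1325 in place of 2026 in cKO, and leaving out 1 library 1073 to 2119. The cause of these changes was not tested. With 2 libraries per group, genes with wide replicate spread such as Cd80 and Cd274 had intervals that allow changes of over 2-fold between genotypes.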
